A study of Macaca mulatta with 13 samples.

Results

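The genes described here are 9 components of the cyclic AMP signalling route that lies downstream of adrenergic receptors: the protein kinase A subunits PRKACB and PRKAR1A, the transcription factors CREB1, CREM and ATF1, and the phosphodiesterases PDE3B, PDE4A, PDE4B and PDE7A. Every probe set that the platform annotation pairs with 1 symbol, that symbol being one of these 9, was included, which gave 32 of the 52707 probe sets. Of the 32, 23 had a mean over all arrays above 6.04 on the log2 scale, the limit used for testing, and the other 9 were too dim to be tested. The annotation pairs 1 further probe set with PRKAR1A together with another symbol, and it was left out. None of the 9 genes is itself a receptor, so the adrenergic end of the route is covered only by a list of other genes given towards the end.

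The study measured peripheral blood mononuclear cells, the lymphocytes and monocytes that remain after red cells and granulocytes are separated from blood, from 13 rhesus macaques (Macaca mulatta) aged 4 months. By the labels, 4 animals were peer reared, 4 surrogate-peer reared and 5 maternally reared, and each animal gave 1 Affymetrix rhesus array. The question posed by the series was whether gene expression differs with early rearing. The labels describe no genotype, drug or stimulation for any animal and no detail of how each kind of rearing was done; the peer and surrogate-peer animals are called non-maternal here as one group.

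In this route a Gs-coupled receptor, such as several of the adrenergic receptors, switches on adenylyl cyclase, and the cyclic AMP it makes binds the regulatory subunits of protein kinase A and frees the catalytic subunits. The freed kinase phosphorylates CREB1, ATF1 and activating forms of CREM, which sit on cyclic AMP response elements in promoters. Phosphodiesterases break cyclic AMP down and so end the signal. In blood leukocytes the route is known for restraining T cell activation and the release of inflammatory cytokines by monocytes.

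The arrays differed in ways that touch every comparison with maternal animals. Array medians ran from 5.995 to 6.044 in the 8 non-maternal arrays and from 6.048 to 6.061 in the 5 maternal arrays, and the SD within an array was 2.12 to 2.15 in non-maternal and 2.09 to 2.11 in maternal arrays, without overlap in either measure. The log2 ratio of 3' to 5' signal of the actin and GAPDH controls was 1.33 to 1.74 in non-maternal and 1.55 to 2.23 in maternal arrays. Markers of the blood mononuclear cell types were above the testing limit: 8 of 8 T cell, 11 of 12 monocyte, 11 of 11 natural killer and 9 of 9 B cell genes that had a probe set with 1 symbol. The mean T cell marker level, taken relative to each gene's mean over the 13 arrays, was lowest in maternal arrays 2 and 5, at -0.62 and -0.58 on the log2 scale, and the mean monocyte marker level was highest in the same 2 arrays, at 0.81 and 0.76. Results are therefore also given without these 2 arrays where that ends a call, and for some probe sets that were not called. In a mixture of cells such as this, fewer cells of a type and less RNA per cell cannot be told apart. The labels name 13 separate samples but not their kinship or housing, and p-values measure the spread between these samples.

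Set against maternal animals, the non-maternal animals had more transcript of PDE7A, a phosphodiesterase specific for cyclic AMP and abundant in T cells, and of ATF1, a close relative of CREB1. Both PDE7A probe sets and the brightest ATF1 probe set passed the test, with log2 fold changes between 0.37 and 0.95. With limma and Benjamini-Hochberg adjustment over all 26352 tested probe sets, this made 3 of the 23 tested probe sets of the 9 genes, or 13.04%, against 8.0% of all tested probe sets. All 3 were higher in non-maternal animals, where the share of all tested probe sets was 6.64%, and 0 were lower, where it was 1.35%. Across all tested probe sets, 1751 were higher and 356 lower. Centring each array on its median made this split 1094 to 834, and quantile normalization made it 886 to 451, higher to lower.

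Probe sets other than the 3 that passed also stood away from 0. An unadjusted limma p under 0.05 was reached by 15 of the 23 probe sets, or 65.2%, against 29.0% of all tested probe sets. The 15 include the 3 that passed. The median size of the log2 fold change, with its sign dropped, was 0.38 for the 23 and 0.16 for all tested probe sets. Signs were mixed: 13 of the 23 were positive (56.5%), against 51.0% of all tested probe sets, and the median signed log2 fold change was 0.08, against 0.01. In none of the 23 did the 8 non-maternal arrays lie wholly on 1 side of the 5 maternal arrays, which 2.87% of all tested probe sets did. Probe sets of 1 gene share their transcript and are not independent of each other. The genes were also chosen with earlier results of these data known. Their shares and sizes therefore cannot be read as an unbiased excess over all tested probe sets. The same limit applies to the shares of the 23 in the other comparisons.

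**Figure D1:**
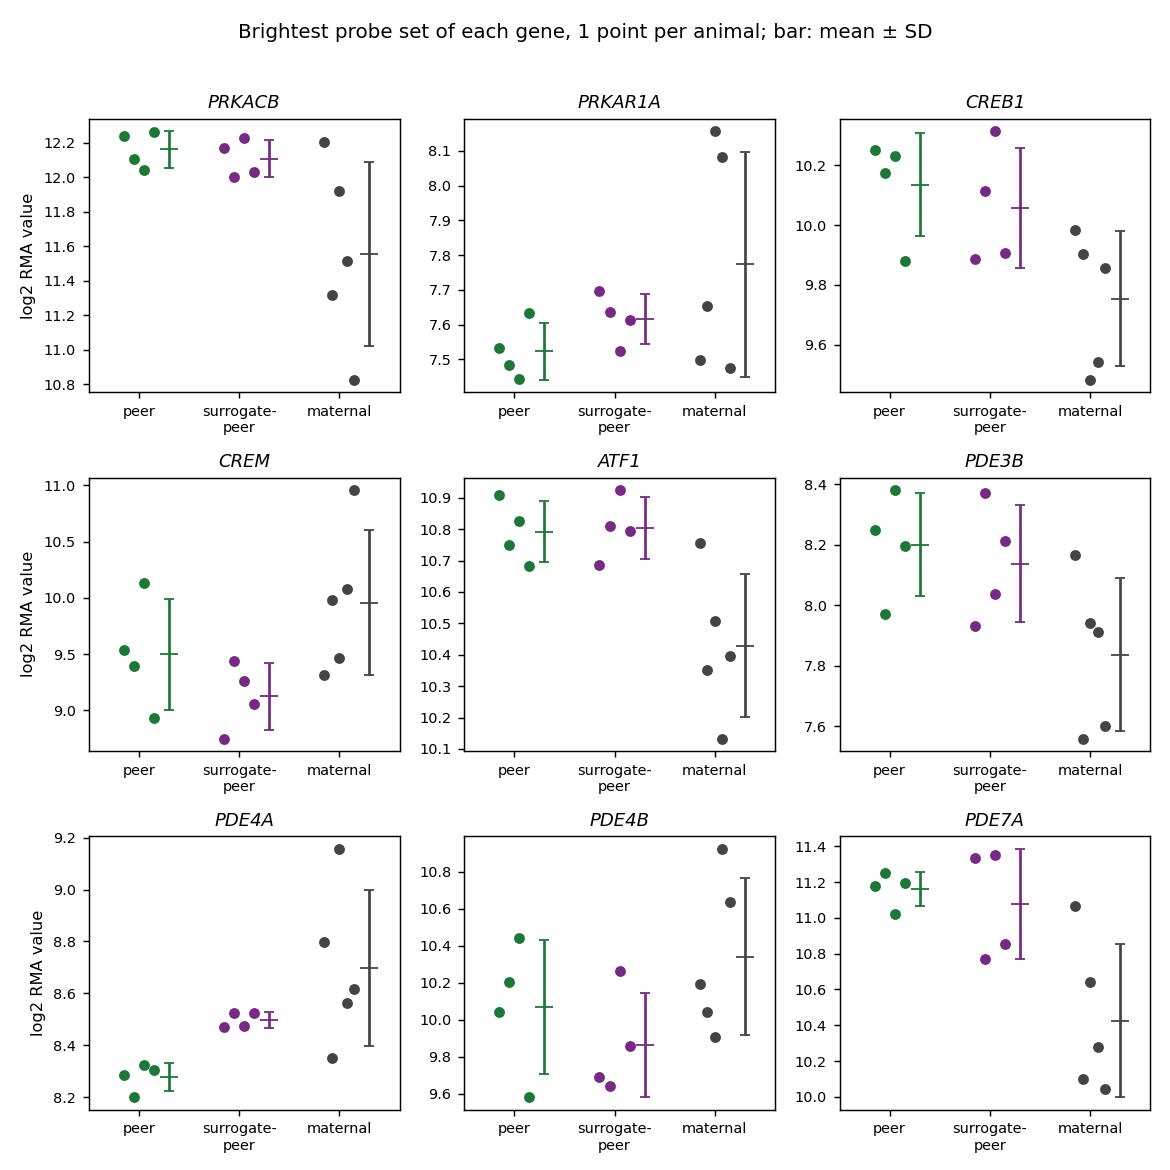
Log2 RMA value (vertical axis) of the brightest probe set of each of the 9 genes in peer (green), surrogate-peer (purple) and maternal (grey) animals; 1 point is 1 animal, and the bar is the group mean with its SD (n = 4, 4 and 5). Maternal points of PRKACB spread more widely than its non-maternal points: they run between 10.83 and 12.20 while the non-maternal points lie between 12.00 and 12.26.

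The 2 kinase subunits were measured at very different signal. PRKACB, a catalytic subunit of protein kinase A, was read by probe set MmugDNA.11143.1.S1_at at log2 values of 12.24, 12.11, 12.04 and 12.26 in peer animals, 12.17, 12.00, 12.22 and 12.03 in surrogate-peer animals and 12.20, 11.32, 11.92, 11.51 and 10.83 in maternal animals. The 8 non-maternal values sat close together, 4 of the 5 maternal values lay below all of them, and maternal array 1 lay among them. Means were 12.13 ± 0.10 (SD, n = 8) in non-maternal and 11.56 ± 0.53 (SD, n = 5) in maternal animals, a log2 fold change of 0.58 ± 0.18 (SE) with a limma adjusted p of 0.0658, which missed the threshold of 0.05. A second PRKACB probe set, MmugDNA.21559.1.S1_at, gave 0.49 ± 0.17 (limma adjusted p = 0.0880), and over the 13 arrays the pair had a Pearson r of 0.94. Without maternal arrays 2 and 5 the log2 fold change of the first was 0.26, with a limma adjusted p of 0.253.

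PRKAR1A, the regulatory subunit that holds the kinase inactive until cyclic AMP binds, was tested through MmugDNA.5430.1.S1_at. It read 7.53, 7.48, 7.44 and 7.63 in peer animals, 7.70, 7.63, 7.52 and 7.61 in surrogate-peer animals and 7.50, 7.65, 8.16, 8.08 and 7.47 in maternal animals. Maternal arrays 3 and 4 were higher than every non-maternal array, and the other 3 maternal arrays lay among the non-maternal ones. The log2 fold change was -0.20 ± 0.12 and did not pass (limma adjusted p = 0.263). Against maternal animals the kinase subunits leaned opposite ways, neither past the threshold.

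Among the transcription factors, ATF1 was called. Its brightest probe set, MmugDNA.40145.1.S1_at, read 10.91, 10.75, 10.82 and 10.68 in peer animals, 10.69, 10.81, 10.93 and 10.79 in surrogate-peer animals and 10.76, 10.35, 10.51, 10.13 and 10.39 in maternal animals. Again 4 maternal arrays lay below all 8 non-maternal arrays, while maternal array 1 lay within their range. The means were 10.80 ± 0.09 (SD, n = 8) in non-maternal and 10.43 ± 0.23 (SD, n = 5) in maternal animals, and the log2 fold change was 0.37 ± 0.09 (limma adjusted p = 0.0380). The call was lost with arrays centred on their median (0.31, limma adjusted p = 0.0509), with quantile normalization (0.32, limma adjusted p = 0.0604) and without maternal arrays 2 and 5 (0.33, limma adjusted p = 0.140).

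The 5 tested ATF1 probe sets did not all read alike. MmugDNA.27537.1.S1_at gave a log2 fold change of 0.57 ± 0.17 (limma adjusted p = 0.0541), MmuSTS.511.1.S1_s_at 0.69 ± 0.22 (0.0647) and MmugDNA.33764.1.S1_s_at 0.33 ± 0.13 (0.112). In the last of these, the 4 peer values of 7.07, 6.58, 6.85 and 6.59 all exceeded the maternal values of 6.39, 6.54, 6.27, 6.33 and 6.55, and surrogate-peer values were 6.30, 6.86, 7.08 and 6.66. MmugDNA.33764.1.S1_at differed from these, with -0.08 ± 0.16 (limma adjusted p = 0.767) and an r of 0.03 with the brightest ATF1 probe set over the 13 arrays. Unlike the brightest probe set, these others rose without maternal arrays 2 and 5. In the order given, their log2 fold changes were then 0.79, 0.999, 0.42 and 0.19 (limma adjusted p = 0.0686, 0.0634, 0.151 and 0.404). Probe sets of 1 gene can lie on different transcript forms, and the platform annotation used here does not say which.

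CREB1, named for its binding to the cyclic AMP response element, was read at 10.25, 10.18, 10.23 and 9.88 in peer animals, 9.89, 10.12, 10.31 and 9.91 in surrogate-peer animals and 9.98, 9.90, 9.48, 9.54 and 9.86 in maternal animals by MmuSTS.3958.1.S1_at. The groups overlapped, with 5 of the 8 non-maternal arrays above all maternal arrays and 3 maternal arrays below all non-maternal ones. The log2 fold change of 0.34 ± 0.11 had a limma adjusted p of 0.0759. The dimmer CREB1 probe set, MmugDNA.26742.1.S1_s_at, gave 0.08 ± 0.12 (limma adjusted p = 0.678). Without maternal arrays 2 and 5 the brighter and the dimmer CREB1 probe set stood at 0.43 and 0.12 (limma adjusted p = 0.114 and 0.666).

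CREM, whose gene makes both activators and, from an internal promoter, the inducible repressor ICER, pointed the other way. Its brightest probe set, MmugDNA.25150.1.S1_at, read 9.54, 9.39, 10.13 and 8.93 in peer animals, 8.75, 9.44, 9.26 and 9.05 in surrogate-peer animals and 9.31, 9.98, 9.46, 10.08 and 10.96 in maternal animals. Maternal array 5 was above every other array, the groups overlapped otherwise, and the range within maternal animals was wider than the distance between group means. The log2 fold change was -0.65 ± 0.27 and did not pass (limma adjusted p = 0.133).

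A pair of other CREM probe sets repeated this: MmugDNA.34749.1.S1_at gave -0.66 ± 0.32 (limma adjusted p = 0.188) and MmugDNA.34828.1.S1_s_at -0.67 ± 0.26 (limma adjusted p = 0.116). The 3 correlated with each other at r of 0.97 to 0.98 over the 13 arrays. Without maternal arrays 2 and 5 their log2 fold changes were -0.31, -0.19 and -0.25. The fourth tested CREM probe set, MmugDNA.9912.1.S1_at, stood at -0.01 ± 0.19 (limma adjusted p = 0.980), with surrogate-peer array 2 at 7.37 and the other 3 surrogate-peer arrays between 6.56 and 6.59.

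Of the phosphodiesterases, PDE7A gave the largest log2 fold changes among the 23 probe sets. MmugDNA.33671.1.S1_at read 11.18, 11.25, 11.02 and 11.19 in peer animals, 11.34, 10.77, 11.35 and 10.86 in surrogate-peer animals and 11.07, 10.10, 10.64, 10.28 and 10.04 in maternal animals. Maternal array 1 lay within the non-maternal range and the other 4 maternal arrays below it. Means were 11.12 ± 0.22 (SD, n = 8) in non-maternal and 10.43 ± 0.43 (SD, n = 5) in maternal animals, a log2 fold change of 0.69 ± 0.17 or 1.62-fold (limma adjusted p = 0.0340). After quantile normalization it was 0.64 (limma adjusted p = 0.0572), and without maternal arrays 2 and 5 it was 0.46 (limma adjusted p = 0.155).

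The dimmer PDE7A probe set, MmugDNA.37523.1.S1_at, read 7.37, 7.06, 7.24 and 7.27 in peer animals, 6.92, 7.13, 7.69 and 6.61 in surrogate-peer animals and 6.78, 6.32, 5.94, 6.08 and 5.95 in maternal animals. All 4 peer values exceeded all 5 maternal values, and of the surrogate-peer animals only array 4 fell below the highest maternal value. Its means were 7.16 ± 0.32 (SD, n = 8) in non-maternal and 6.21 ± 0.35 (SD, n = 5) in maternal animals, 0.95 ± 0.18 on the log2 scale or 1.93-fold (limma adjusted p = 0.0217). Without maternal arrays 2 and 5 the log2 fold change was 0.89 with a limma adjusted p of 0.0758. The 2 probe sets had an r of 0.83 over the 13 arrays.

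PDE3B, a phosphodiesterase that cyclic GMP inhibits and insulin signalling activates, was read at 8.25, 7.97, 8.38 and 8.20 in peer animals, 7.93, 8.37, 8.04 and 8.21 in surrogate-peer animals and 8.17, 7.56, 7.94, 7.91 and 7.60 in maternal animals by MmugDNA.20077.1.S1_at. The groups overlapped, and 5 of 8 non-maternal arrays lay above the highest maternal one. Its log2 fold change of 0.33 ± 0.12 did not pass (limma adjusted p = 0.0918). MmugDNA.2221.1.S1_at gave 0.58 ± 0.17 (limma adjusted p = 0.0537), just outside the threshold, and MmugDNA.903.1.S1_at gave 0.04 ± 0.07 (limma adjusted p = 0.733). Without maternal arrays 2 and 5 the brightest probe set stood at 0.16 (limma adjusted p = 0.406).

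The PDE4 enzymes are specific for cyclic AMP and are the targets of rolipram-type anti-inflammatory drugs. PDE4A was read by MmugDNA.20907.1.S1_at at 8.29, 8.20, 8.32 and 8.30 in peer animals, 8.47, 8.52, 8.47 and 8.52 in surrogate-peer animals and 8.80, 8.35, 9.16, 8.56 and 8.62 in maternal animals. The peer values lay below every other array, and 4 of 5 maternal arrays lay above all non-maternal arrays. The log2 fold change of -0.31 ± 0.11 did not pass (limma adjusted p = 0.0891), nor did the -0.28 ± 0.10 of MmugDNA.20260.1.S1_at (limma adjusted p = 0.0883). Unlike CREM and PRKACB, PDE4A did not shrink without maternal arrays 2 and 5, when the brightest probe set stood at -0.45 (limma adjusted p = 0.0717).

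PDE4B, the PDE4 form tied to cytokine release by stimulated monocytes, read 10.04, 10.21, 10.44 and 9.58 in peer animals, 9.69, 9.64, 10.26 and 9.86 in surrogate-peer animals and 10.19, 10.04, 9.91, 10.93 and 10.64 in maternal animals by MmugDNA.904.1.S1_at. Maternal arrays 4 and 5 were the highest, and the other 3 maternal arrays lay within the non-maternal range. Neither this probe set (-0.38 ± 0.19, limma adjusted p = 0.212) nor MmuSTS.2033.1.S1_at (-0.48 ± 0.28, limma adjusted p = 0.278) passed.

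The 9 probe sets below the testing limit belonged to PRKACB, PRKAR1A, CREM, ATF1, PDE3B and PDE4A. In a fit without the limit their log2 fold changes against maternal animals ran from -0.36 for CREM MmuSTS.1884.1.S1_at to 0.46 for PRKACB MmugDNA.31823.1.S1_at, with limma adjusted p-values of 0.242 and 0.0620. The remaining 7 lay between -0.16 and 0.27 and 0 of the 9 passed in that fit.

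**Figure D2:**
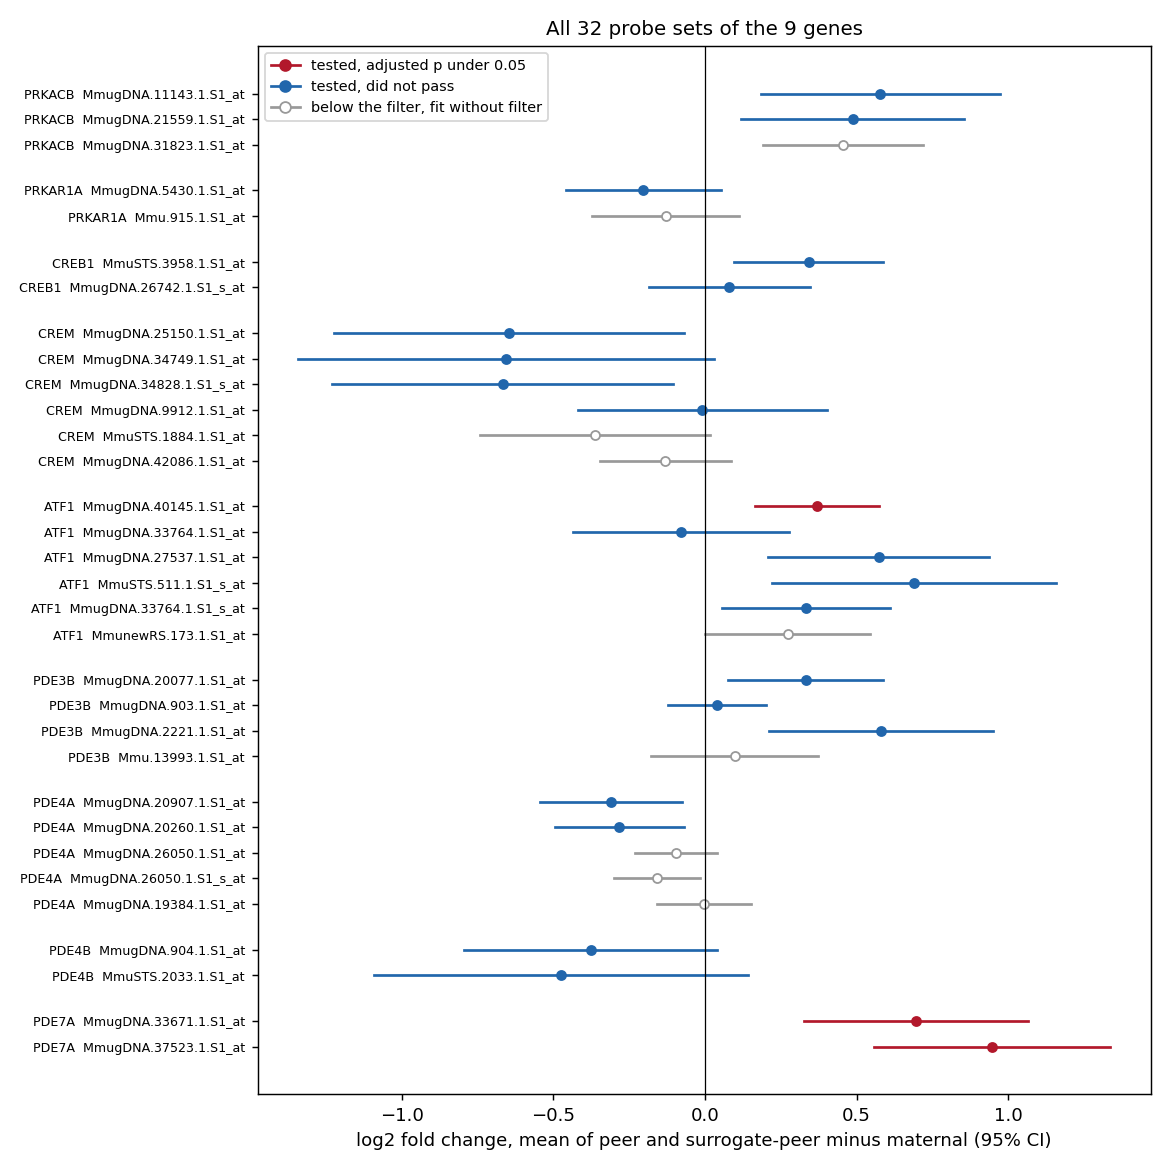
Log2 fold change, mean of peer and surrogate-peer minus maternal, with its 95% confidence interval (horizontal axis) for all 32 probe sets of the 9 genes; red probe sets passed the test, blue ones were tested and did not pass, and open grey ones were below the testing limit and come from a fit without it. The 3 red intervals, for ATF1 and PDE7A, lie to the right of 0, and the 3 brightest CREM probe sets lie together near -0.65.

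Each rearing group was also set against the same 5 maternal arrays, so the pair of comparisons share their reference samples and are given side by side without a measure of their likeness. In peer minus maternal, 0 of the 23 probe sets passed with limma, against 0.353% of all tested probe sets (0.311% higher and 0.0417% lower), and 13 had an unadjusted p under 0.05 (24.9% of all). In surrogate-peer minus maternal, 0 of the 23 passed, against 0% of all, and again 13 had an unadjusted p under 0.05 (20.3% of all). PDE7A MmugDNA.37523.1.S1_at came nearest in both, with 1.02 ± 0.21 (limma adjusted p = 0.0511) in peer and 0.87 ± 0.21 (limma adjusted p = 0.0945) in surrogate-peer animals.

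The brightest PDE7A probe set stood at 0.74 ± 0.20 in peer and 0.65 ± 0.20 in surrogate-peer animals. ATF1 stood at 0.36 ± 0.11 in peer and 0.38 ± 0.11 in surrogate-peer animals, and PRKACB at 0.60 ± 0.21 in peer and 0.55 ± 0.21 in surrogate-peer animals. These 3 genes had nearly equal values against maternal animals in both groups. CREM was at -0.46 ± 0.31 in peer and -0.83 ± 0.31 in surrogate-peer animals, and PDE4A at -0.42 ± 0.13 in peer and -0.20 ± 0.13 in surrogate-peer animals.

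The direct comparison, surrogate-peer minus peer, shows whether such gaps exceed the spread. With limma 0 of the 23 probe sets passed, against 0% of all tested probe sets, and 0 of the 23 had an unadjusted p under 0.05, against 1.83% of all. The log2 fold changes ran from -0.37 to 0.22, with a median size of 0.065 for the 23 and 0.075 for all tested probe sets. The extremes were CREM MmugDNA.25150.1.S1_at, at -0.37 ± 0.33 with a 95% confidence interval of -1.09 to 0.34, and PDE4A MmugDNA.20907.1.S1_at, at 0.22 ± 0.13 with an interval of -0.07 to 0.51. For PDE4A the 4 surrogate-peer values, 8.47 to 8.52, all lay above the 4 peer values, 8.20 to 8.32, while the standard error of the fit also carries the wider maternal spread. The share of all tested probe sets that separate in this way was not counted, so no difference is read from it. Over 22 settings, among them a fit with only the arrays compared, the lowest limma adjusted p of this PDE4A probe set was 0.808. For PDE7A MmugDNA.33671.1.S1_at the interval was -0.54 to 0.37, so a difference of either sign within those bounds could have gone unseen.

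**Figure D3:**
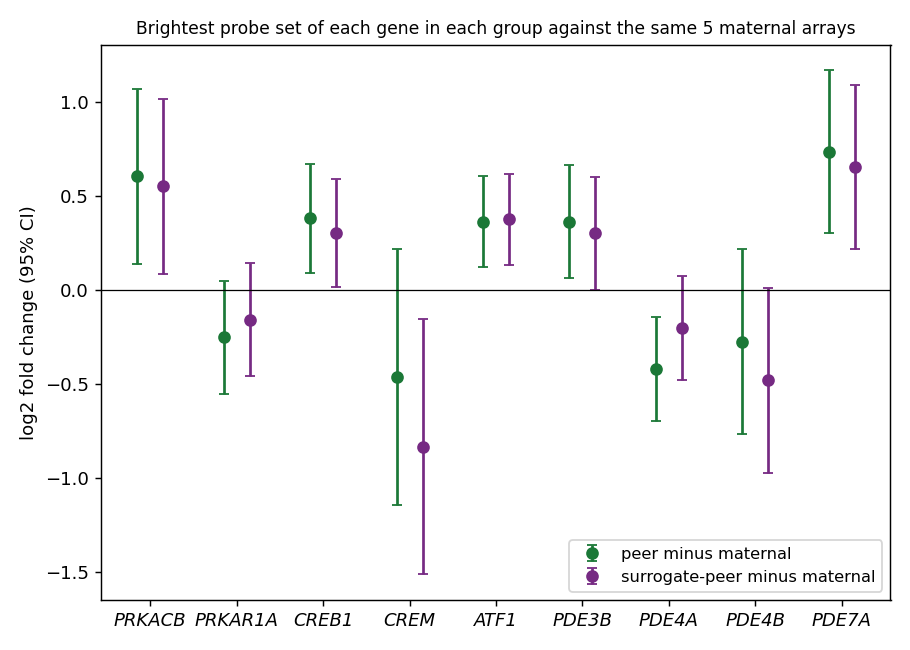
Log2 fold change with its 95% confidence interval (vertical axis) of the brightest probe set of each gene, in peer minus maternal (green) and surrogate-peer minus maternal (purple), both against the same 5 maternal arrays. The 2 intervals of each gene overlap widely, and the points lie farthest apart for CREM, at -0.46 and -0.83, followed by PDE4A, at -0.42 and -0.20.

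The maternal animals differed among themselves in these genes. Relative to the mean over the 13 arrays, maternal array 5 had PRKACB at -1.08, PDE7A at -0.81 and CREM at 1.399, and maternal array 1 had PRKACB at 0.29, PDE7A at 0.21 and CREM at -0.25, close to the non-maternal arrays. Over the 13 arrays PRKACB and PDE7A had an r of 0.93, and 0.86 after group means were subtracted. PRKACB and CREM had an r of -0.85, and -0.83 after group means were subtracted. CREB1 and PRKAR1A had an r of -0.85, and -0.81 within groups. These values describe 13 arrays that share their normalization and cell makeup.

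Cell markers moved over the same arrays. The mean T cell marker level was 0.03 to 0.36 in peer, -0.07 to 0.40 in surrogate-peer and -0.62 to -0.01 in maternal animals, and all 8 measured T cell markers had a positive log2 fold change against maternal animals, with 1 passing, BCL11B at 0.70 ± 0.16 (limma adjusted p = 0.0313). The mean monocyte marker level was -0.46 to 0.06 in peer, -0.50 to 0.35 in surrogate-peer and -0.40 to 0.81 in maternal animals, with 2 of 11 markers positive and 1 passing, MS4A7 at -1.48 ± 0.35 (limma adjusted p = 0.0310). The mean natural killer marker level was -0.64 to 0.44 in non-maternal and -0.08 to 0.83 in maternal animals, with 5 of 11 markers lower and 1 higher past the threshold. The mean B cell marker level was -0.29 to 0.54 in peer, -1.15 to -0.18 in surrogate-peer and 0.03 to 0.99 in maternal animals, and 0 of 9 markers were positive with 1 passing, FCRLA at -0.92 ± 0.17 (limma adjusted p = 0.0210). The mean basophil and mast cell marker level was -0.19 to 1.09 in non-maternal and -1.48 to 0.17 in maternal animals, and of 4 tested markers all were positive and 2 passed, CPA3 at 1.34 ± 0.36 (limma adjusted p = 0.0437) and FCER1A, also a dendritic cell marker, at 1.91 ± 0.45 (limma adjusted p = 0.0315). No marker on the neutrophil, platelet or erythroid lists passed. The part of these cell types and of the 3' to 5' ratio in the results on the 9 genes was not tested.

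**Figure D4:**
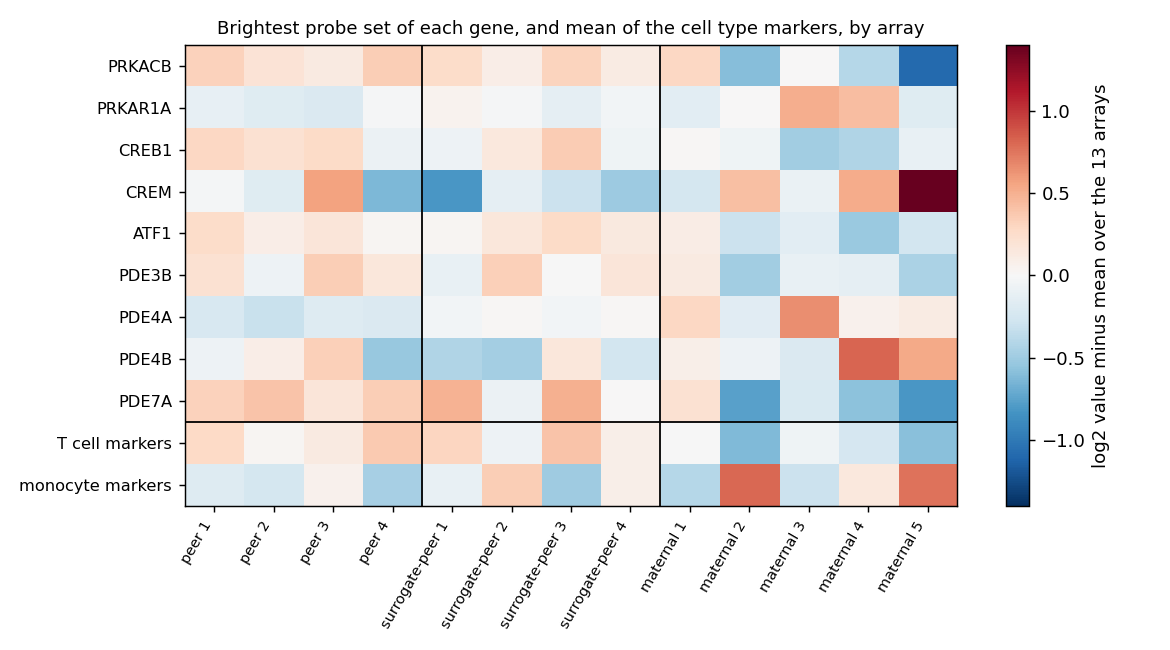
Each cell is the log2 value of 1 array (columns) minus the mean over the 13 arrays, in colour (red higher, blue lower), for the brightest probe set of each of the 9 genes and for the mean of the T cell and of the monocyte markers (rows). Maternal arrays 2 and 5 are blue for PRKACB, PDE7A and T cell markers and red for CREM and monocyte markers. Maternal array 4 has the same signs, at -0.40 for PRKACB, -0.57 for PDE7A and 0.52 for CREM. Its T cell and monocyte marker levels, -0.24 and 0.15, are nearer to 0 than those of arrays 2 and 5. Maternal array 1 resembles the non-maternal arrays in PRKACB and PDE7A.

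The calls depended on single animals. With each array left out in turn, PDE7A MmugDNA.37523.1.S1_at stayed past the threshold in 11 of 13 fits and was lost without maternal array 4 (0.91, limma adjusted p = 0.0665) and without maternal array 5 (0.88, limma adjusted p = 0.0552). PDE7A MmugDNA.33671.1.S1_at was called in 4 of 13 fits and ATF1 MmugDNA.40145.1.S1_at in 2 of 13. Leaving out maternal array 1 raised the number of the 23 probe sets past the threshold to 12. Leaving out maternal array 4 or maternal array 5 lowered it to 0. Over all 26352 tested probe sets, 2107 passed with all arrays, and 4830, 29 and 57 without maternal array 1, 4 and 5. Of the 23, 1 passed without any 1 of the 4 peer arrays, where 311 to 989 of all passed. Without surrogate-peer array 3, 1 of the 23 and 497 of all passed. Without maternal arrays 2 and 5 together, 0 of the 23 and 37 of all passed.

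**Figure D5:**
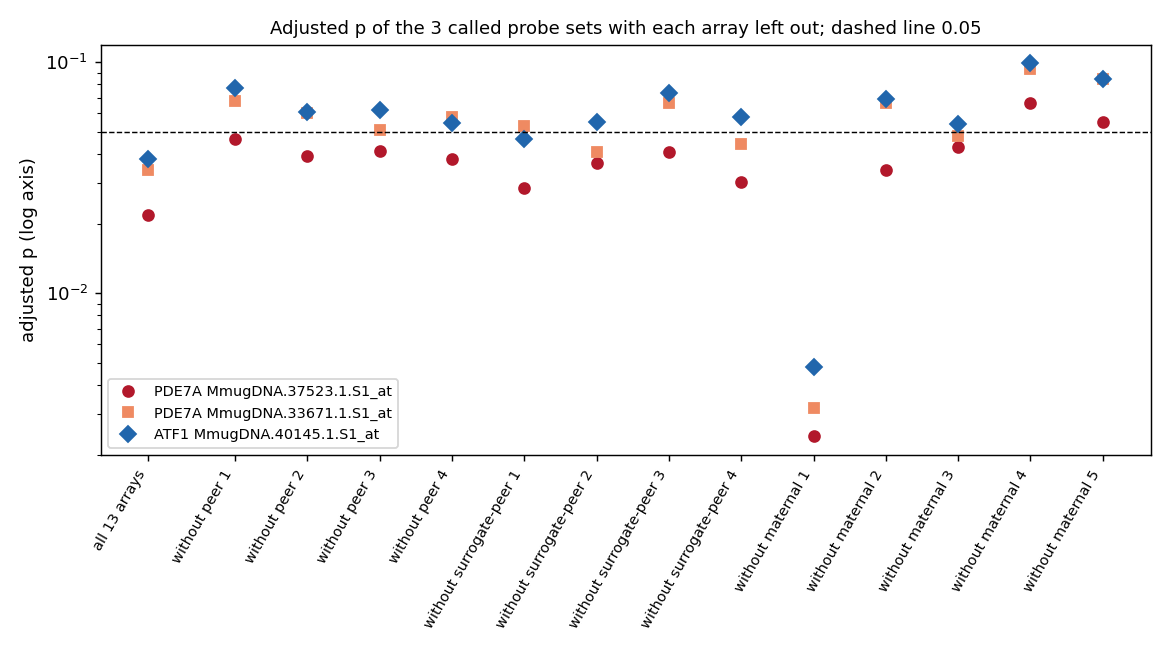
Limma adjusted p, on a log axis, of the 3 probe sets that passed, with all 13 arrays and with each array left out in turn (horizontal axis); the dashed line is the threshold of 0.05. ATF1 (diamonds) and the brighter PDE7A probe set (squares) lie below the line in 2 and 4 of the 13 fits, the dimmer PDE7A probe set (circles) lies above it only without maternal array 4 or 5, and all 3 are lowest without maternal array 1.

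The rest of the route was followed with 8 lists of 124 genes, each gene by its brightest probe set, of which 67 were tested. Against maternal animals 3 of the 67 passed with limma, 1 higher and 2 lower, which is 4.48% against 8.0% of all tested probe sets, and the median log2 fold change was -0.04, against 0.01 for all. In the 3 other comparisons 0 of the 67 passed. Only 5 of 18 adrenergic and other Gs-coupled receptors were tested, 0 passed, and all 5 values were negative, also after quantile normalization. Centring lowers every value against maternal animals by the same amount, so it could not turn a negative one. Of the 5, 1 was positive without maternal array 2 (0.03), maternal array 4 (0.04), surrogate-peer array 1 (0.01), surrogate-peer array 3 (0.01) or maternal arrays 2 and 5 together (0.13), and 1 passed, lower, without maternal array 1. The one with the smallest p was ADRA2B, an alpha-adrenergic receptor that lowers cyclic AMP, at -0.21 (limma adjusted p = 0.0862). All 7 tested adenylyl cyclases, the enzymes that make cyclic AMP, had negative values between -0.22 and -0.06, and 0 passed. Their values stayed negative after quantile normalization. Their means over the 13 arrays were 6.26 to 6.90, and of the 5 receptors only 1 was above 7.72, a stricter limit. Dim probe sets leaned lower in the whole table. The median log2 fold change was -0.03 without a filter and 0.09 above the stricter limit. Positive values were 51.0% of all tested probe sets. Among the cyclases the smallest p was that of ADCY5 (limma adjusted p = 0.0577), and 1 of the 7 passed, lower, with centring, with the trended prior, with the title number as a covariate or without maternal array 1. Without maternal array 5, or without maternal arrays 2 and 5, 1 of the 7 was positive, at 0.018 and 0.07.

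Downstream, 1 of 11 tested kinase subunits, inhibitors and anchors passed. PKIG, a small protein that inhibits the catalytic subunits, read 7.10 to 7.61 in peer, 6.61 to 6.94 in surrogate-peer and 7.53 to 8.56 in maternal animals. It fell against maternal animals, at -0.74 ± 0.16 (limma adjusted p = 0.0254), with surrogate-peer values wholly below those of maternal animals. The call held in 9 of 13 fits with an array left out and was lost without maternal array 4, maternal array 5, peer array 1 or surrogate-peer array 3, at limma adjusted p-values of 0.0669, 0.0527, 0.0532 and 0.0513, and without maternal arrays 2 and 5 together (-0.60, limma adjusted p = 0.0560). PKIG stood at -0.41 ± 0.19 in peer and -1.06 ± 0.19 in surrogate-peer animals against maternal animals, and surrogate-peer minus peer was -0.65 ± 0.20, with an unadjusted limma p of 0.00593 and an adjusted p of 0.9999. Of the other cyclic nucleotide phosphodiesterases, a list not limited to cyclic AMP, 1 of 5 tested passed. This was PDE6A, known from the rod photoreceptor, where it breaks down cyclic GMP. PDE6A read 6.41 to 6.82 in peer, 5.79 to 7.12 in surrogate-peer and 5.42 to 5.85 in maternal animals, 0.88 ± 0.18 on the log2 scale (limma adjusted p = 0.0239). All its maternal values lay below the testing limit of 6.04. Its mean over the 13 arrays, 6.17, exceeded that limit only through non-maternal arrays, so its place among the tested genes was not independent of the difference. The PDE6A call was lost without maternal array 4 (limma adjusted p = 0.0711), maternal array 5 (0.0596), peer array 1 (0.0528) or maternal arrays 2 and 5 together (0.96, limma adjusted p = 0.0727).

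Among 16 further CREB-family factors and coactivators 1 passed, CREB3L2, a membrane-bound factor of the secretory pathway. It read 6.38 to 6.56 in peer, 6.33 to 6.61 in surrogate-peer and 6.53 to 7.02 in maternal animals, at -0.32 ± 0.09 (limma adjusted p = 0.0434), and the call held in 3 of 13 fits with an array left out, without maternal array 1, maternal array 3 or surrogate-peer array 2. It was lost without the filter on dim probe sets (limma adjusted p = 0.0559), with quantile normalization (0.0581), with the title number as a covariate (0.0834) and without maternal arrays 2 and 5 (-0.29, limma adjusted p = 0.146). Of 14 tested genes known to respond to cyclic AMP, 0 passed and 7 were positive, with the smallest p for the clock gene PER1 at -0.30 (limma adjusted p = 0.0629). Of 10 G proteins, arrestins and receptor kinases 0 passed, with the smallest p for GNAI3, an inhibitory G protein subunit, at 0.29 (limma adjusted p = 0.111). On the list of other cyclic AMP sensors and RAP GTPases, the 1 tested gene was RAP1A, a GTPase and not itself a sensor. Its brightest probe set stood at 0.03 (limma adjusted p = 0.921) and its other tested probe set at 0.35, which did not pass. No sensor outside the kinase was tested.

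The named gene whose values followed each of the 9 genes most closely over the 13 arrays was taken from 14371 tested probe sets, by the highest Pearson r. It was BIRC2 for PRKACB (r of 0.99), ARMCX4 for PDE7A (0.98), ATP2A2 for ATF1 (0.97) and FRYL for CREB1 (0.96). For CREM it was IRF2 (0.96), for PRKAR1A YKT6 (0.96), for PDE3B CISH (0.96), for PDE4A PRSS8 (0.95) and for PDE4B PAX4 (0.89). The highest of 14371 values is high by selection, and no test was made of it.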

How the data were processed

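Per the submitters' processing notes, the authors summarised each array with RMA (robust multi-array average), and the deposited value of a probe set is on a log2 scale. The RMA version and settings, and whether the 13 arrays were processed jointly, are not given in the sources used. Total RNA of each animal was hybridised to 1 array, and the number of arrays limits the precision. Of 52865 probe sets, 158 controls were left out. Testing was limited to the 26352 whose mean over the arrays exceeded the median of all such means, 6.04. Names come from the platform annotation; 8 of the 9 symbols matched RefSeq's, and for PRKAR1A the platform's symbol was kept.

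All 13 arrays entered 1 limma 3.58.1 fit (lmFit and eBayes, R 4.3.3) with 3 groups taken from the labelled rearing condition. Two-sided p-values were adjusted by Benjamini-Hochberg over all tested probe sets, with a threshold of 0.05. The spread is shared over groups, so where maternal values vary more the errors against maternal animals are too small. The 9 genes, the pathway and marker lists and the rule for named genes (per gene the most alike one; per list up to 3 that passed, otherwise the 1 with the smallest p) were chosen with earlier results of these data known. A marker level is the mean over markers of the log2 value minus the marker's mean over the arrays. Alternatives changed the filter, centring, normalization, array weights, prior and arrays used, or added the number in the sample title as a covariate. The fit was tested on simulated data. Sequences were not used here.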

Additional observations from a re-analysis of the deposited data

Results flagged for a closer look

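In 96 groups (32 probe sets in 3 groups of animals), 4 arrays lay far from the rest of their group by Dixon's criterion, which chance meets in about 1 in 20 groups. CREM MmugDNA.9912.1.S1_at read 7.37 in surrogate-peer array 2 and 6.56 to 6.59 in the other 3 surrogate-peer arrays. The same array stood apart for another CREM probe set, MmugDNA.42086.1.S1_at, at 4.87 against 4.39 to 4.46, which is below the testing limit. PDE4A MmugDNA.26050.1.S1_s_at read 5.11 in maternal array 4 and 4.78 to 4.88 in the other 4 maternal arrays. PDE4A MmugDNA.19384.1.S1_at read 4.69 in surrogate-peer array 1 and 4.37 to 4.41 in the other 3. None of the 3 probe sets that passed the test was among the 4.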

How the results depend on the processing

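Against maternal animals, the number of the 23 probe sets past the threshold in the non-maternal group was 3; it became 7 with the title number as a covariate and 0 without maternal arrays 2 and 5, and ran from 0 to 12 with single arrays left out. In peer animals it was 0, then 3 with array weights and 2 with the title number, and 0 to 6 with single arrays left out. In surrogate-peer animals it was 0 and ran from 0 to 4. Over the whole table the 2107 non-maternal calls became 1337 with quantile normalization, 3127 with the title number and 37 without maternal arrays 2 and 5. They ran from 29 to 4830 with single arrays left out. The 93 peer calls became 50 without a filter, 1 with the stricter filter, 5 with centring, 6 with quantile normalization, 1543 with array weights, 0 with only the arrays compared, 59 with a trended prior, 1819 with the title number and 3 without maternal arrays 2 and 5, with 0 to 3488 when single arrays were left out. The 0 surrogate-peer calls became 1 without a filter, 33 with centring, 25 with quantile normalization, 7 with the title number and 1 without maternal arrays 2 and 5, with 0 to 2097 when single arrays were left out. Surrogate-peer minus peer stayed at 0 calls in all of these fits. Among the log2 fold changes of the 9 genes given here, signs turned for these. Against maternal animals, CREM MmugDNA.9912.1.S1_at reached 0.16 without maternal arrays 2 and 5 and ran from -0.13 to 0.11 with single arrays left out, ATF1 MmugDNA.33764.1.S1_at reached 0.19 and ran from -0.179 to 0.0651 likewise, and PDE3B MmugDNA.903.1.S1_at was -0.0211 with centring. In surrogate-peer minus peer (brightest probe sets), the title number gave 0.42 for PRKACB, 0.0708 for PDE3B and 0.33 for PDE7A, and quantile normalization gave -0.00192 for ATF1. Single arrays left out gave -0.0282 to 0.0515 for ATF1, -0.140 to 0.00625 for PDE3B and -0.174 to 0.0198 for PDE7A. The cause was not tested. No paired analysis was possible because the replicate numbers here only name the arrays.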
